A study of Mus musculus with 16 samples.

Results

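The genes described here are 31 that code for acute phase proteins, most of them plasma proteins that the liver makes in larger or smaller amounts during inflammation. They are the rows of the deposited count table whose gene symbol is on a fixed list of 31 symbols, out of 33730 genes in the table. All 31 were found, and all 31 passed the filter on low counts. They comprise 4 serum amyloid A genes, 3 orosomucoids, the heme and iron binders Hp, Hpx and Lcn2, the pentraxins Crp and Apcs, 3 fibrinogen chains with the related Fgl1, 3 Serpina3 inhibitors, 4 inter-alpha-trypsin inhibitor heavy chains, A2m, Lbp, the complement genes C3 and Cfb, Cp, Steap4 and 2 kininogens. Steap4 codes for a membrane metalloreductase and is not a plasma protein.

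The study asked how the drug CDDO-Me acts on mouse liver with and without the transcription factor NRF2. RNA-seq was made from 16 C57BL/6 livers in 4 groups of 4 animals, all taken at partial hepatectomy, on day 0. KO CDDO-Me mice were Nrf2-/- and received CDDO-Me (bardoxolone methyl, a triterpenoid that activates NRF2) at 3 mg/kg into the peritoneum, dissolved in DMSO, 24 h and 1 h before the operation. KO untreated mice were Nrf2-/- and are labelled as untreated, with no vehicle injection named. WT CDDO-Me mice were wild type and received the same drug on the same schedule, and WT DMSO mice were wild type and received DMSO at 1 µL/g. The design text of the series instead places resection 24 h after the treatments. Because no DMSO is named for the KO controls, the drug and its vehicle cannot be told apart in KO CDDO-Me against KO untreated, and genotype and vehicle cannot be told apart in KO untreated against WT DMSO. The age and sex of the mice and the deleted part of Nfe2l2, the gene for NRF2, are not stated in the labels.

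Acute phase genes are switched on mainly in hepatocytes. Interleukin 6 acts through its receptor and STAT3, and interleukin 1 and tumour necrosis factor act through NF-κB, while C/EBP factors bind the promoters of many of these genes. Type 1 genes such as Saa1, Saa2, Saa3, Orm1 and C3 respond to interleukin 1 together with interleukin 6, and type 2 genes such as the fibrinogen chains, Hpx and the antichymotrypsin family respond to interleukin 6 type cytokines. Other liver products, such as albumin, fall in the acute phase.

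Library depth lay between 12002317 and 99284626 gene counts. Levels are given in CPM, counts per 1000000 after TMM scaling of the library sizes, always in the order of replicates 1 to 4. Nfe2l2 itself had 19.8, 15.7, 21.0 and 19.0 CPM in the KO CDDO-Me libraries, 51.7, 35.5, 19.9 and 21.3 in KO untreated, 39.5, 36.6, 45.5 and 38.0 in WT CDDO-Me and 42.8, 66.2, 55.1 and 74.9 in WT DMSO. A whole-gene count takes in reads from any part that was not deleted and so does not check the genotype. The NRF2 target Nqo1 had 0.766 to 1.98 CPM in KO CDDO-Me, 0.434 to 1.19 in KO untreated, 30.7 to 45.9 in WT CDDO-Me and 3.21 to 4.22 in WT DMSO, so each library lay on the side its label gives. Of 12 hepatocyte markers, 11 were in the table and none of these was at 0 throughout a group. Albumin had 49993 to 69514 CPM in KO CDDO-Me, 32316 to 85259.6 in KO untreated, 40109.9 to 53049 in WT CDDO-Me and 30429 to 63592 in WT DMSO. In bulk tissue, fewer cells of a type and less RNA per cell cannot be told apart.

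The 4 serum amyloid A genes lie within 42.3 kb of each other on chromosome 7 and gave opposite patterns in KO livers, so their promoters are shown side by side. The 250 bases before the RefSeq start on GRCm38.p6 are chr7:46742981-46743230 for Saa1, chr7:46715677-46715926 for Saa3 and chr7:46732604-46732853 for Saa4, all on the minus strand, and chr7:46751583-46751832 for Saa2 on the plus strand. They are printed 5′ to 3′ on the gene's strand, and capitals mark matches to the C/EBP pattern TTNNGNAA on either strand.
Saa1: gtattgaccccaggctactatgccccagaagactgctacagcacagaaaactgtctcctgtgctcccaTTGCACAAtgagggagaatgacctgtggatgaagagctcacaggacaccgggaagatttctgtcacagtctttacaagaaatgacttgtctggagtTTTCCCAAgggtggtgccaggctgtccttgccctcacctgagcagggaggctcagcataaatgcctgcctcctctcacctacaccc
Saa2: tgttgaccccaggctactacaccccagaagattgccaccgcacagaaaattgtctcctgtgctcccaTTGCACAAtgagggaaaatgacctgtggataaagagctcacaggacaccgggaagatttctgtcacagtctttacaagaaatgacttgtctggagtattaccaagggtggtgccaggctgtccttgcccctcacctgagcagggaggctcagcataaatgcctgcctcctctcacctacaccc
Saa3: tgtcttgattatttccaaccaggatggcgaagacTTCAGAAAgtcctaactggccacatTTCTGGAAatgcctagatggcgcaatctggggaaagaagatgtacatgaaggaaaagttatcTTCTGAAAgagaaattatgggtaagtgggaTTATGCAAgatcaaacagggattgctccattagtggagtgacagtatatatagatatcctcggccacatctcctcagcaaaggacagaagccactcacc
Saa4: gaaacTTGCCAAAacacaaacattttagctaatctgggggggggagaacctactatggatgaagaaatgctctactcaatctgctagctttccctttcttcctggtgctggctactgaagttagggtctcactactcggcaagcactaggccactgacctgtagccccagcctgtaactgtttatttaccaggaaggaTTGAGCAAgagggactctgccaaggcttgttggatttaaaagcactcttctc
The Saa1 and Saa2 windows were 94.8% identical over their alignment, the Saa1 and Saa3 windows 52.2% and the Saa1 and Saa4 windows 49.5%. Saa3 held 4 matches to the C/EBP pattern, Saa1 and Saa4 held 2 each and Saa2 held 1. RefSeq gave a promoter for 22 of the 31 genes, and 18 of these (81.8%) held the C/EBP pattern, against 40.3% of the windows of 27025 genes. The STAT pattern TTCNNNGAA, which reads the same on both strands, was in 5 (22.7%), namely Apcs, Fga, Fgb, Itih4 and Steap4, against 8.13% of all windows. The NF-κB consensus was in 1 (4.55%, Steap4), against 4.46%. The antioxidant response element core TGACNNNGC, the pattern NRF2 is known for, was in 2 (9.09%, Hpx and Itih3), against 11.5%. A match is a description of the letters and not a measured binding site.

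Per kilobase of gene length, by the group median of the deposited FPKM averaged over the 4 groups, the most abundant of the 31 was Hpx, at 5234 FPKM, followed by Serpina3k (4646), Hp (4367), Fga (2616) and C3 (2550). The order differed by group, since the median of Hpx was 9660.5 FPKM in KO CDDO-Me and below that of Serpina3k in the other 3 groups. The least abundant were Saa3 (30.5 FPKM), Orm3 (4.39), Cfb (1.50) and A2m (0.733). The place of Cfb is uncertain, because 99.4% of its span is also annotated to another gene on the same strand. Together the 31 genes took 15.2%, 15.4%, 10.3% and 8.70% of all counts in KO CDDO-Me, and 4.39%, 5.46%, 6.65% and 6.69% in KO untreated. They took 7.94%, 10.004%, 7.50% and 7.66% in WT CDDO-Me, and 6.11%, 4.65%, 5.79% and 10.6% in WT DMSO. The lowest KO CDDO-Me share was above the highest KO untreated share, and the WT DMSO 4 share was above every WT CDDO-Me share.

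**Figure D1:**
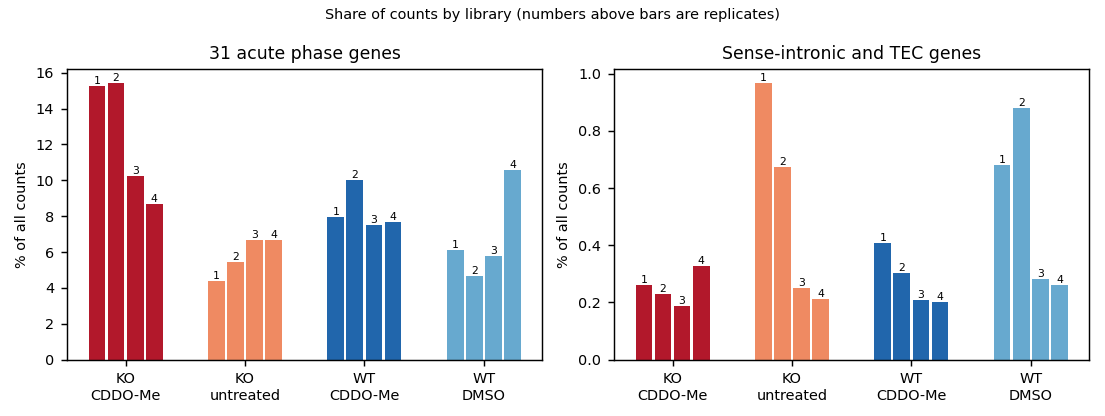
Bars give, for each library, the percentage of all counts in the 31 acute phase genes (left) and in genes annotated as sense-intronic or TEC (right), with the replicate number above each bar. On the left all KO CDDO-Me bars stand above all KO untreated bars and WT DMSO 4 reaches 10.6%, and on the right KO untreated 1 and 2 and WT DMSO 1 and 2 stand highest, at 0.673% to 0.967%.

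In KO livers the acute phase genes were broadly higher with CDDO-Me than without treatment. Of the 31, 4 rose at an adjusted p under 0.05 in edgeR's quasi-likelihood test (Kng2, Serpina3m, Itih3 and Fgl1) and 0 fell, against 0.105% of all 16206 genes tested rising and 0.0247% falling. The log2 fold change was positive for 29 of the 31, against 45.5% of all genes tested, with a median of 1.44 for the 31 and -0.04 for all genes. At an unadjusted p under 0.05, 22 were higher and 0 lower, against 6.24% and 9.58% of all genes. DESeq2 called 0 lower. In 20 of the 31 every KO CDDO-Me library was above every KO untreated library, against 5.98% of all genes, and in 1 (Saa3) every library was below, against 4.50%. The 2 genes with negative values were Saa3 and Serpina3k.

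The number that passed depended on single libraries. It was 4 with all libraries (0.130% of all genes), and 0 without KO untreated 2 (0.0238%) or KO CDDO-Me 2 (0.0307%). It was 2 without KO untreated 1 (0.0539%), KO untreated 3 (0.0675%) or KO CDDO-Me 1 (0.0737%). Without WT DMSO 2 it was 7 (0.167%). It was 12 (0.816%) without WT DMSO 4, which enters the estimate of the spread. DESeq2 called 17 higher, against 1.85% of all genes in either direction. Across the 16 fits that each left out 1 library, 29 or 30 of the 31 were positive and the median lay between 1.24 and 1.54. KO untreated 1 was the lowest library of its group for 24 of the 31, and KO untreated 1 and 2 were rich in sense-intronic and TEC counts (0.967% and 0.673%, against 0.186% to 0.327% in KO CDDO-Me). Without these and WT DMSO 1 and 2, 0 were called (0.0244% of all genes) and 29 were positive. The median was then 1.17, against 0.02 for all genes. In that fit 18 had an unadjusted p under 0.05, for which the share of all genes was not counted. With the share of sense-intronic and TEC counts as a covariate, chosen after seeing the data, 6 were called (0.531% of all genes). There 26 were positive and the median was 1.02, against -0.01 for all genes.

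**Figure D2:**
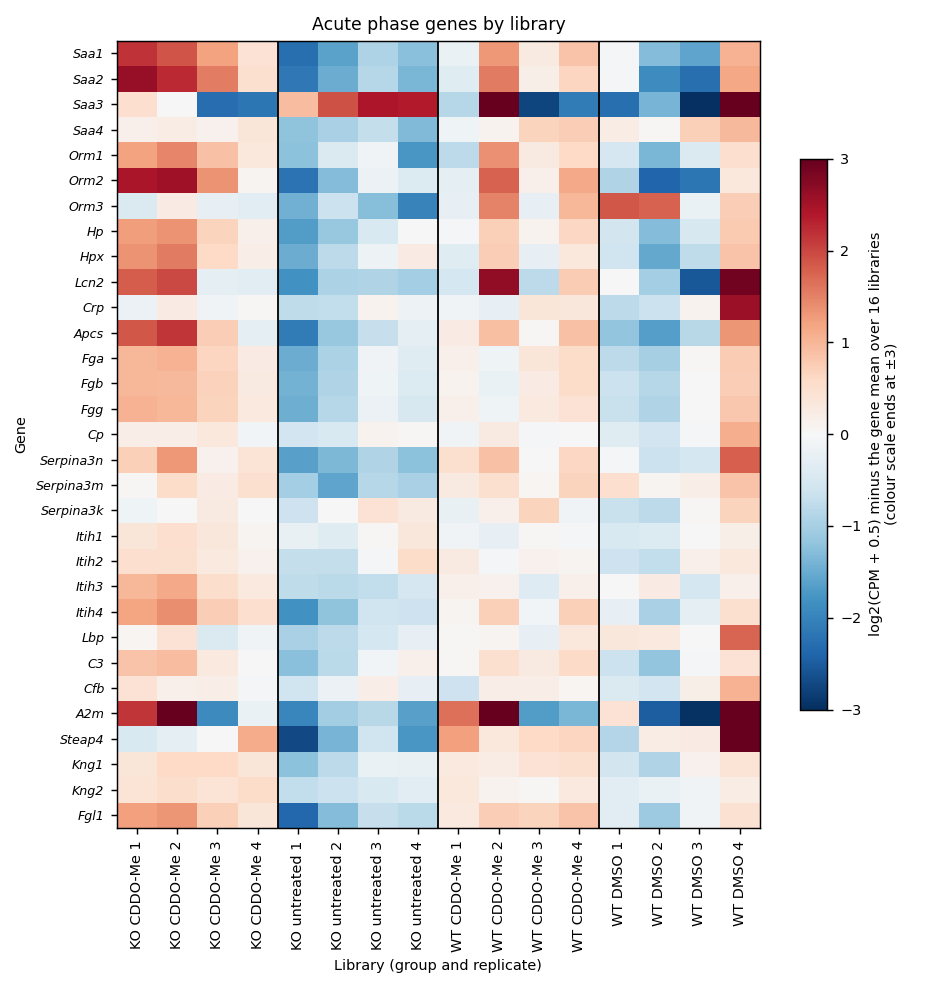
Colour gives log2(CPM + 0.5) minus the mean of the gene over the 16 libraries (scale ends at ±3) for the 31 genes down the page and the libraries across, grouped as KO CDDO-Me, KO untreated, WT CDDO-Me and WT DMSO. The KO CDDO-Me columns are mostly above and the KO untreated columns mostly below the gene means, Saa3 runs the other way in the KO columns, and WT DMSO 4 stands apart from WT DMSO 1 to 3.

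In WT livers no acute phase gene passed the test with CDDO-Me. Of the 31, 0 were called in either direction by edgeR and 0 by DESeq2, against 0.728% and 2.92% of all genes. At an unadjusted p under 0.05, 2 were higher (Orm2 and Fgl1) and 1 was lower (Lbp), against 6.91% and 8.42% of all genes, or 15.3% in either direction. The log2 fold change was positive for 20 of 31, against 48.4% of all genes, with a median of 0.23, and no gene had groups that did not overlap, against 4.36% of all genes with every library higher and 2.84% with every library lower. WT DMSO 4 was the highest WT DMSO library for 29 of the 31. Without it, 29 were positive, the median was 0.77 against 0.01 for all genes, and 0 were called (1.34% of all genes). In that fit 16 were higher at an unadjusted p under 0.05, for which the share of all genes was not counted. Without the 4 libraries rich in intronic counts, 12 were positive and the median was -0.19.

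In untreated KO livers the acute phase genes were mostly lower than in WT livers given DMSO. Of the 31, 4 fell (Serpina3m, Saa4, Orm3 and Lbp) and 0 rose by edgeR, against 0.969% of all genes falling and 0.407% rising, or 1.38% in either direction. The log2 fold change was negative for 27 and positive for 4, against 50.5% of all genes positive, with a median of -0.64 for the 31 and 0.00 for all genes. At an unadjusted p under 0.05, 14 were lower and 0 higher, against 7.46% and 6.65% of all genes. In 6 every KO untreated library was below every WT DMSO library, against 3.04% of all genes, and in 0 every library was above, against 2.87%. Without WT DMSO 4 the median was -0.18, against 0.02 for all genes. In that fit 12 of the 31 were positive and 3 were called (1.28% of all genes). At an unadjusted p under 0.05, 8 were then lower and 1 higher, for which the share of all genes was not counted. In a fit of only these 2 groups 0 were called (0.130% of all genes), or 1 with a block for the replicate number (0.476%). DESeq2 called 8 lower, against 4.08% of all genes in either direction. Counts of mitochondrial genes were 3.01% to 3.74% of a library in KO untreated, against 4.09% to 10.02% in WT DMSO, with no overlap. Nuclear ribosomal RNA was 0.00380% to 0.0368% in KO untreated, against 0.173% to 0.634% in WT DMSO 1 to 3 and 0.00595% in WT DMSO 4. Their part in the difference was not tested.

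**Figure D3:**
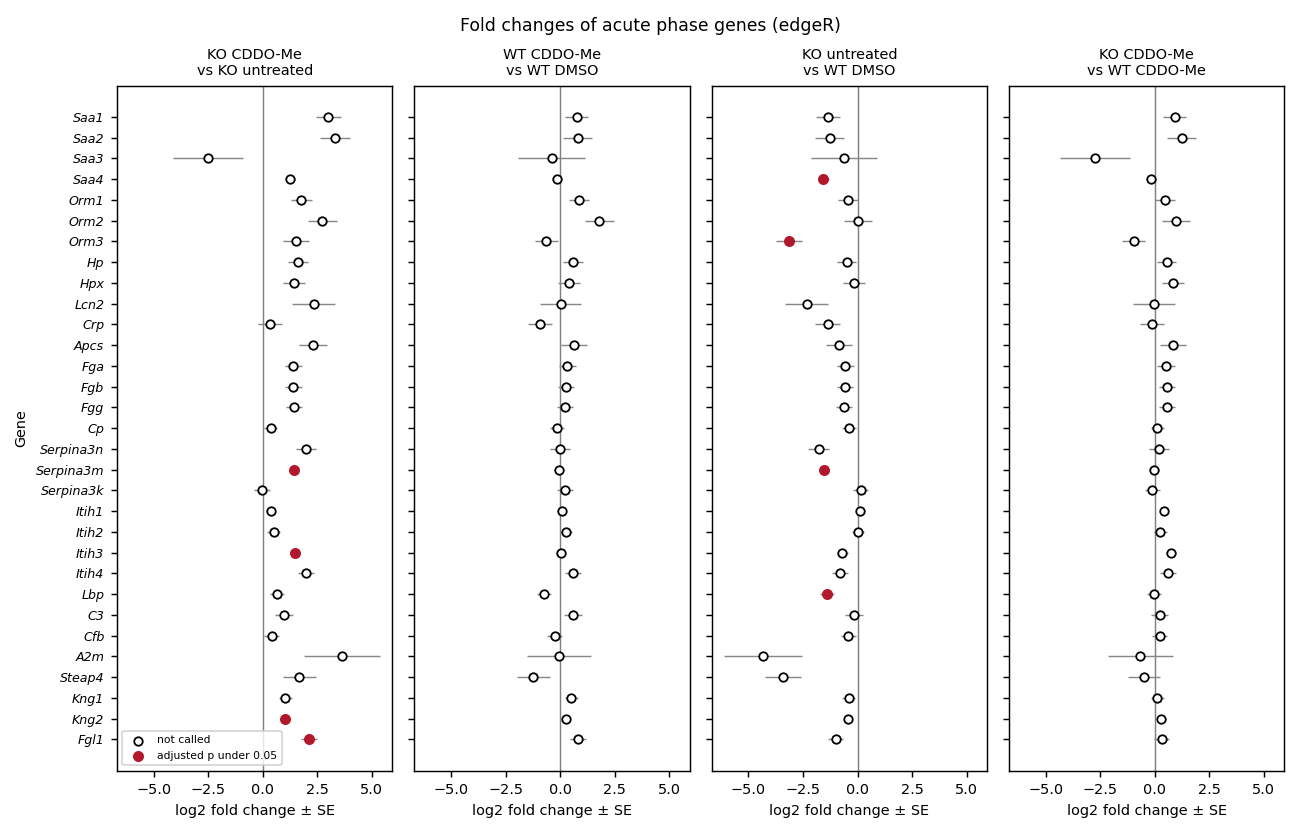
Points give the log2 fold change ± SE of each of the 31 genes from edgeR in the 4 pairwise comparisons, all on 1 scale, with red points at an adjusted p under 0.05. In KO CDDO-Me against KO untreated 29 points lie right of 0 and 4 are red, in WT CDDO-Me against WT DMSO and in KO CDDO-Me against WT CDDO-Me none is red, and in KO untreated against WT DMSO 27 lie left of 0 and 4 are red.

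Among the serum amyloid A genes, Saa1 and Saa2 are the classical acute phase forms carried on high density lipoprotein. Saa1 had 7267, 6016, 3755 and 2178 CPM in the KO CDDO-Me libraries, against 338, 527, 853 and 672 CPM in the KO untreated libraries. All KO CDDO-Me libraries were above all KO untreated libraries, by 8.04-fold (log2 3.01 ± 0.57, SE, n = 4 each), which missed the threshold (edgeR adjusted p = 0.0529). In WT livers Saa1 had 1415, 3999, 1949.5 and 2921 CPM in the WT CDDO-Me libraries, against 1543, 653, 541 and 3351 CPM in the WT DMSO libraries, and the groups overlapped (log2 0.76 ± 0.54, edgeR adjusted p = 0.477). Saa2 had 9688, 7419, 4563 and 2194 CPM in the KO CDDO-Me libraries, against 359.8, 559.8, 877 and 616 CPM in the KO untreated libraries. The groups again did not overlap (log2 3.31 ± 0.70, edgeR adjusted p = 0.0917), and without WT DMSO 4 both passed (edgeR adjusted p = 0.00891 for Saa1 and 0.0187 for Saa2). Saa1 also passed without WT DMSO 2, WT DMSO 3 or KO CDDO-Me 4 (edgeR adjusted p = 0.0337, 0.0385 and 0.0452). In WT livers Saa2 had 1234, 4683, 1787 and 2464 CPM in the WT CDDO-Me libraries, against 1553, 431, 331 and 3543 CPM in the WT DMSO libraries. Saa1 and Saa2 share 8.96% and 8.63% of their 100-base transcript words with each other, so the split of reads between them is uncertain.

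Saa3, which macrophages, fat cells and hepatocytes can all make, had the lowest log2 fold change of the 31 in KO livers. It had 72.8, 52.1, 10.2 and 11.1 CPM in the KO CDDO-Me libraries, against 98.3, 194, 277 and 271 CPM in the KO untreated libraries. Every KO CDDO-Me library was below every KO untreated library, with a log2 fold change of -2.52 ± 1.61 (SE) that did not pass (edgeR adjusted p = 0.411, and 0.147 in a fit of the 2 KO groups alone). In WT livers Saa3 had 28.1, 934, 7.19 and 11.7 CPM in the WT CDDO-Me libraries, against 10.3, 19.1, 5.49 and 1255 CPM in the WT DMSO libraries. WT CDDO-Me 2 and WT DMSO 4 stood far above the other libraries of their groups, and the other 6 WT libraries, at 5.49 to 28.1 CPM, were all below every KO untreated library. Without WT DMSO 4 the log2 fold change of KO untreated against WT DMSO turned to 4.18, against -0.62 with it, and neither passed. The ratio of Saa3 to Saa1 was 0.00271 to 0.0100 in KO CDDO-Me, against 0.291 to 0.404 in KO untreated. It was 0.00369 to 0.0198 in WT CDDO-Me 1, 3 and 4 with 0.234 in WT CDDO-Me 2, against 0.00668 to 0.0293 in WT DMSO 1 to 3 with 0.375 in WT DMSO 4. The ratio was examined after its values were seen and has no test.

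Saa4, the constitutive form, had 417, 432, 407 and 475 CPM in the KO CDDO-Me libraries, against 161, 191, 227 and 149 CPM in the KO untreated libraries. The groups did not overlap, and the log2 fold change of 1.25 ± 0.24 (SE) missed the threshold (edgeR adjusted p = 0.0529). In WT livers Saa4 had 338, 402, 594 and 621 CPM in the WT CDDO-Me libraries, against 431, 384, 608 and 735 CPM in the WT DMSO libraries. Saa4 fell to 182 ± 34.4 CPM in KO untreated livers, against 539.7 ± 162 CPM in WT DMSO livers (SD, n = 4 each). That is 2.97-fold lower (edgeR adjusted p = 0.00403), and it passed in each of the 16 fits that left out 1 library.

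**Figure D4:**
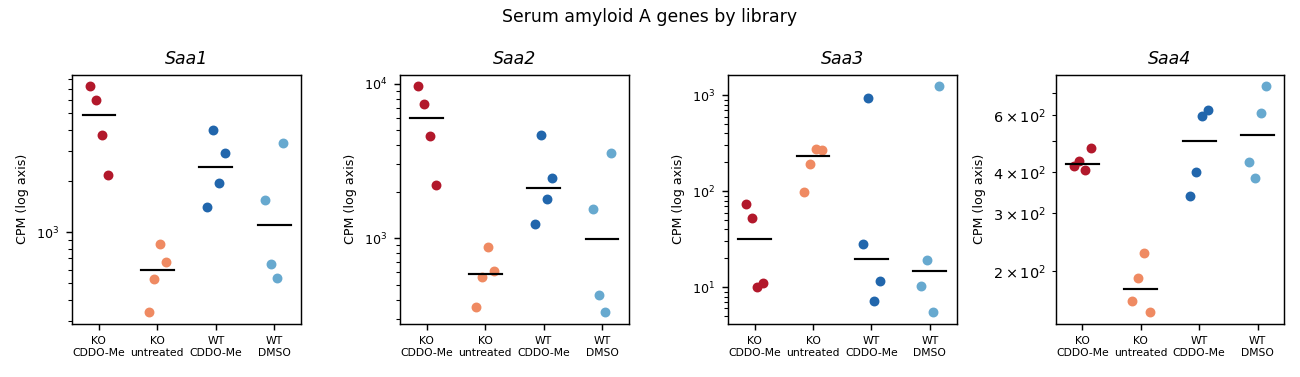
Points give the CPM of Saa1, Saa2, Saa3 and Saa4 in each library on log axes, with a line at the group median. For Saa1, Saa2 and Saa4 all KO CDDO-Me points lie above all KO untreated points, for Saa3 they lie below, and WT CDDO-Me 2 and WT DMSO 4 hold the 2 highest Saa3 values (933.8 and 1255 CPM).

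The orosomucoids code for alpha-1-acid glycoprotein, a plasma carrier of drugs and lipids. Orm1 had 2001, 2374, 1571 and 1073 CPM in the KO CDDO-Me libraries, against 369, 636, 803 and 254 CPM in the KO untreated libraries, with no overlap (log2 1.77 ± 0.47, edgeR adjusted p = 0.17). In WT livers Orm1 had 496, 2219.6, 1039 and 1307 CPM in the WT CDDO-Me libraries, against 609.7, 335, 632 and 1216 CPM in the WT DMSO libraries, and the groups overlapped. Orm2 had 484, 510.5, 223 and 92.9 CPM in the KO CDDO-Me libraries, against 18.5, 35.4, 77.8 and 65.3 CPM in the KO untreated libraries, again with no overlap (log2 2.73 ± 0.69, edgeR adjusted p = 0.135). In WT livers Orm2 had 73.0, 300.2, 97.9 and 195 CPM in the WT CDDO-Me libraries, against 46.6, 16.5, 19.2 and 109.7 CPM in the WT DMSO libraries, a log2 fold change of 1.79 ± 0.67 that did not pass (edgeR adjusted p = 0.234). Orm1 and Orm2 share 6.95% of their transcript words, so their split is uncertain. Orm3, the least abundant of the 3, had 1.74, 3.11, 2.07 and 1.89 CPM in the KO CDDO-Me libraries, against 0.609, 1.45, 0.755 and 0.256 CPM in the KO untreated libraries. It had 2.07, 7.96, 2.05 and 5.51 CPM in the WT CDDO-Me libraries, against 10.6, 9.78, 2.14 and 4.59 CPM in the WT DMSO libraries. Orm3 fell in KO untreated livers, all of which were below all WT DMSO livers (8.81-fold lower, log2 -3.14 ± 0.59, edgeR adjusted p = 0.0142), and passed in each of the 16 fits that left out 1 library.

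Hp codes for haptoglobin, which binds free hemoglobin, and Hpx for hemopexin, which binds heme. Hp had 15299, 16251, 10148 and 7061 CPM in the KO CDDO-Me libraries, against 2015, 2929, 4669 and 6303 CPM in the KO untreated libraries. The groups did not overlap, and the log2 fold change of 1.61 ± 0.46 did not pass (edgeR adjusted p = 0.18). In WT livers Hp had 6238, 10555, 6917 and 9907 CPM in the WT CDDO-Me libraries, against 4349, 2601, 4586 and 10948 CPM in the WT DMSO libraries, where only WT DMSO 4 of the DMSO libraries reached the WT CDDO-Me range. Hpx ranged over 8386 to 21498 CPM in KO CDDO-Me and 2603 to 8566 CPM in KO untreated, with a small overlap (log2 1.44 ± 0.51). Lcn2, a lipocalin that withholds bacterial iron carriers, had 615, 692, 145 and 139.5 CPM in the KO CDDO-Me libraries, against 49.5, 90.01, 93.3 and 85.7 CPM in the KO untreated libraries. The groups did not overlap, but replicates 3 and 4 with the drug were far below replicates 1 and 2 (log2 2.32 ± 0.99, edgeR adjusted p = 0.287). In WT livers Lcn2 had 121, 1114, 101 and 297 CPM in the WT CDDO-Me libraries, against 174, 86.2, 29.8 and 1309.6 CPM in the WT DMSO libraries, and 1 library of each group, WT CDDO-Me 2 and WT DMSO 4, stood above the other 3.

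The pentraxins bind microbes and cell debris, and in mice Apcs, serum amyloid P, is the strong acute phase form while Crp responds little. Apcs ranged over 172 to 906 CPM in KO CDDO-Me and 47.7 to 171 CPM in KO untreated (log2 2.31 ± 0.64, edgeR adjusted p = 0.172). The lowest KO CDDO-Me value lay just above the highest KO untreated value. Crp had 375, 507, 394 and 434 CPM in the KO CDDO-Me libraries, against 249.7, 255, 458 and 385 CPM in the KO untreated libraries, and the groups overlapped (log2 0.34 ± 0.55). In WT livers Crp had 397, 361, 545 and 543 CPM in the WT CDDO-Me libraries, against 247, 271, 458 and 2509 CPM in the WT DMSO libraries, and the WT DMSO 4 value stood alone.

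The 3 fibrinogen chains, the subunits of the clotting protein, lie within 42.1 kb on chromosome 3 and had like values. Fgb had 12206, 11917, 9769.6 and 7322 CPM in the KO CDDO-Me libraries, against 2264, 3262, 5526 and 4567 CPM in the KO untreated libraries. The groups did not overlap, and the log2 fold changes of 1.40 ± 0.41 for Fga, 1.40 ± 0.38 for Fgb and 1.44 ± 0.38 for Fgg did not pass (edgeR adjusted p = 0.187, 0.172 and 0.151). In WT livers Fgb had 6497, 5328, 7219 and 8948 CPM in the WT CDDO-Me libraries, against 3917, 3334, 6002 and 10208 CPM in the WT DMSO libraries. The count ratio of Fga to Fgb stayed between 1.08 and 1.30 and that of Fgg to Fgb between 0.756 and 0.862 over the 16 libraries.

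Fgl1, a fibrinogen-like protein secreted by hepatocytes, had 1739, 1847, 1216 and 950.4 CPM in the KO CDDO-Me libraries, against 143, 299.8, 454 and 419 CPM in the KO untreated libraries. It rose 4.37-fold with the drug (log2 2.13 ± 0.37, edgeR adjusted p = 0.0282), with no overlap. In WT livers Fgl1 had 901, 1238, 1181 and 1334 CPM in the WT CDDO-Me libraries, against 593, 344, 681 and 1019 CPM in the WT DMSO libraries (log2 0.82 ± 0.36, edgeR adjusted p = 0.297). The call in KO livers held in 8 of the 16 fits that left out 1 library, with adjusted p values of 0.0508 to 0.121 in the others, which left out WT CDDO-Me 2, WT CDDO-Me 3, KO untreated 1, 2 or 3, or KO CDDO-Me 1, 2 or 3.

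Kng1 and Kng2 code for kininogens, the precursors of bradykinin and inhibitors of cysteine proteases. Kng2 had 367, 402, 368 and 406 CPM in the KO CDDO-Me libraries, against 166, 178, 201 and 219 CPM in the KO untreated libraries. It rose 2.02-fold with the drug (log2 1.01 ± 0.15, edgeR adjusted p = 0.0119), with no overlap. In WT livers Kng2 had 347, 300.2, 285 and 339.9 CPM in the WT CDDO-Me libraries, against 220.5, 243, 257 and 322 CPM in the WT DMSO libraries (log2 0.29 ± 0.15, edgeR adjusted p = 0.36). Kng1 ranged over 2367 to 2816 CPM in KO CDDO-Me and 783 to 1624 CPM in KO untreated, with no overlap and a log2 value of 1.03 ± 0.29 (edgeR adjusted p = 0.173). The call for Kng2 held in 14 of the 16 fits and was lost without KO untreated 2 (adjusted p = 0.0603) or KO CDDO-Me 2 (0.0578). The genes share 4.93% and 5.30% of their transcript words, so their split is uncertain.

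The Serpina3 genes are the mouse relatives of human antichymotrypsin, an inhibitor of serine proteases. Serpina3m had 539.7, 770.4, 617 and 726 CPM in the KO CDDO-Me libraries, against 258, 176, 288 and 265 CPM in the KO untreated libraries. It rose 2.69-fold with the drug (log2 1.43 ± 0.22, edgeR adjusted p = 0.0121). In WT livers Serpina3m had 629, 730.3, 547 and 834 CPM in the WT CDDO-Me libraries, against 747, 556, 605 and 946 CPM in the WT DMSO libraries, with a log2 value of -0.06 ± 0.21 (edgeR adjusted p = 0.902). KO untreated livers stood alone at the bottom, 2.89-fold below WT DMSO livers (log2 -1.53 ± 0.22, edgeR adjusted p = 0.00255). That fall passed in each of the 16 fits, and the rise in KO livers in 14, lost without KO untreated 2 (adjusted p = 0.0603) or KO CDDO-Me 2 (0.0596).

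Serpina3n had 2005, 3003, 1333 and 1625 CPM in the KO CDDO-Me libraries, against 390.1, 478, 644 and 515 CPM in the KO untreated libraries, with no overlap (log2 1.97 ± 0.47, edgeR adjusted p = 0.115). In WT livers Serpina3n had 1681, 2248, 1206 and 1859 CPM in the WT CDDO-Me libraries, against 1174, 777, 836 and 4219.7 CPM in the WT DMSO libraries. KO untreated libraries were all below WT DMSO libraries (log2 -1.79 ± 0.47, edgeR adjusted p = 0.0746), a value of -0.87 without WT DMSO 4. Serpina3k, the most abundant of the 3, had 8712 to 11468 CPM in KO CDDO-Me and 6209 to 12853 CPM in KO untreated, a log2 fold change of -0.03 ± 0.36. Serpina3m and Serpina3k overlap on the same strand, and share 6.09% and 4.85% of their transcript words, so the split of their reads is uncertain.

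**Figure D5:**
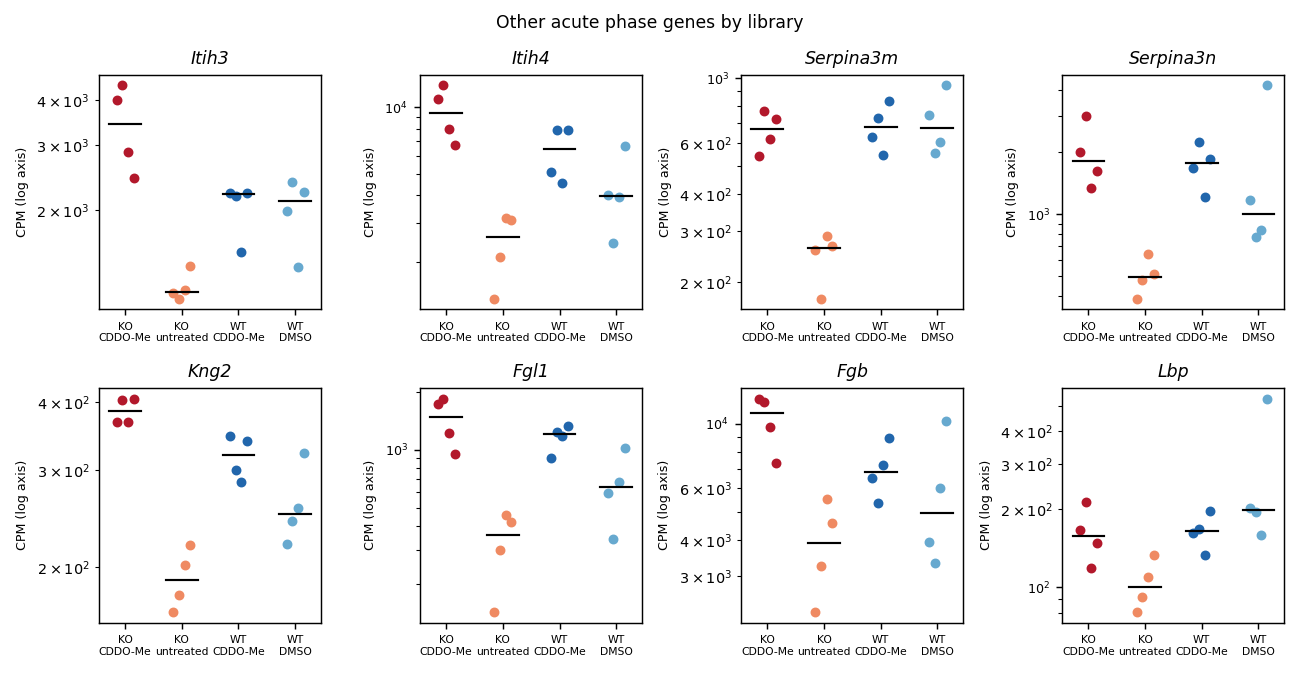
Points give the CPM of Itih3, Itih4, Serpina3m, Serpina3n, Kng2, Fgl1, Fgb and Lbp in each library on log axes, with a line at the group median. In the KO groups all CDDO-Me points lie above all untreated points in each panel but Lbp, and in the Serpina3n and Lbp panels WT DMSO 4 stands above the other WT DMSO points.

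Itih1 to Itih4 code for heavy chains of the inter-alpha-trypsin inhibitor family, which bind hyaluronan or, for Itih4, respond to interleukin 6. Itih1, Itih3 and Itih4 lie within 56.8 kb on chromosome 14. Itih3 had 3992, 4384, 2887 and 2449 CPM in the KO CDDO-Me libraries, against 1184, 1144, 1206 and 1406 CPM in the KO untreated libraries. It rose 2.78-fold with the drug (log2 1.47 ± 0.24, edgeR adjusted p = 0.0212), with no overlap. In WT livers Itih3 had 2231, 2184, 1532 and 2231 CPM in the WT CDDO-Me libraries, against 1985, 2388, 1394 and 2238 CPM in the WT DMSO libraries (log2 0.03 ± 0.24). All KO CDDO-Me livers were also above all WT CDDO-Me livers (log2 0.75 ± 0.24, edgeR adjusted p = 0.108). The call in KO livers held in 11 of the 16 fits, and was lost without KO untreated 1, 2 or 3 or KO CDDO-Me 1 or 2 (adjusted p = 0.0573 to 0.113).

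Itih4 had 10877, 12569.9, 7970.5 and 6770.1 CPM in the KO CDDO-Me libraries, against 1363, 2091, 3168 and 3096 CPM in the KO untreated libraries. The groups did not overlap, and the 3.93-fold difference (log2 1.97 ± 0.37) just missed the threshold (edgeR adjusted p = 0.0504). In WT livers Itih4 had 5082, 7878, 4544 and 7914 CPM in the WT CDDO-Me libraries, against 4027, 2442, 3931 and 6709 CPM in the WT DMSO libraries (log2 0.57 ± 0.36, edgeR adjusted p = 0.432). Itih1 and Itih2 had log2 fold changes of 0.35 ± 0.20 and 0.50 ± 0.29 in KO livers, where their groups overlapped. A2m, the broad protease inhibitor alpha-2-macroglobulin, had 0.542 to 34.5 CPM in KO CDDO-Me and 0.508 to 1.70 CPM in KO untreated. In WT livers A2m spanned 0.711 to 72.6 CPM in WT CDDO-Me and 0 to 82.7 CPM in WT DMSO.

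Lbp, which hands bacterial lipopolysaccharide to its receptor, had 167, 214, 118 and 148 CPM in the KO CDDO-Me libraries, against 80.5, 91.6, 110.1 and 133 CPM in the KO untreated libraries, and these groups overlapped (log2 0.64 ± 0.32). In WT livers Lbp had 163, 167, 133 and 198 CPM in the WT CDDO-Me libraries, against 203, 196, 159.7 and 535 CPM in the WT DMSO libraries. Lbp fell in KO untreated livers against WT DMSO livers (2.63-fold lower, log2 -1.40 ± 0.32, edgeR adjusted p = 0.0421), with no overlap. The call held in 3 of the 16 fits, which left out WT DMSO 1, 2 or 3, and leaving out WT DMSO 4 gave a log2 value of -0.84 (edgeR adjusted p = 0.0684).

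C3, the central complement component, had 12485 to 23949.9 CPM in KO CDDO-Me and 5210.2 to 13987 CPM in KO untreated, with overlap (log2 0.96 ± 0.40). Cp, the copper-carrying oxidase ceruloplasmin, had 1472 to 1954 CPM in KO CDDO-Me and 1049 to 1692 CPM in KO untreated (log2 0.35 ± 0.31). Cfb, factor B of the alternative complement pathway, had only 2.69 to 9.55 CPM, and its value is uncertain because 99.4% of its span is also annotated to another gene on the same strand, not analysed here. Steap4, the metalloreductase, had 266, 305, 372 and 801 CPM in the KO CDDO-Me libraries, against 55.5, 139.96, 242 and 109 CPM in the KO untreated libraries, with no overlap (log2 1.67 ± 0.77, edgeR adjusted p = 0.307). In WT livers Steap4 had 869.6, 458, 556 and 581 CPM in the WT CDDO-Me libraries, against 201, 428, 436 and 4717 CPM in the WT DMSO libraries, and WT DMSO 4 stood alone. KO untreated against WT DMSO gave a log2 value of -3.40 ± 0.82 (edgeR adjusted p = 0.0524), or -1.38 without WT DMSO 4.

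The difference between the drug responses of the 2 genotypes was tested directly as an interaction, KO response minus WT response, which also carries the lack of a named vehicle in KO controls. No acute phase gene passed by edgeR, against 0.130% of all genes, while DESeq2 called 4 (Itih3, Kng2, Saa4 and Serpina3m), against 1.11%. At an unadjusted p under 0.05, 14 of the 31 were positive and 0 negative, against 3.57% and 4.96% of all genes. The smallest p values were for Serpina3m (log2 difference 1.49 ± 0.31, edgeR adjusted p = 0.0767), Itih3 (1.44 ± 0.34, 0.13) and Saa4 (1.39 ± 0.33, 0.132). The value was positive for 29 of 31, against 49.0% of all genes, with a median of 1.21. Without WT DMSO 4 the median was 0.56, against -0.03 for all genes. In that fit 9 were positive and 1 negative at an unadjusted p under 0.05, for which the share of all genes was not counted.

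With the drug in both genotypes, no acute phase gene passed between KO and WT livers. Of the 31, 0 passed by edgeR in KO CDDO-Me against WT CDDO-Me, against 3.30% of all genes in either direction, 1.06% higher and 2.23% lower. At an unadjusted p under 0.05, 1 was higher (Itih3) and 0 lower, against 7.92% and 9.16% of all genes. DESeq2 called 1 (Itih3), against 6.98% of all genes. The log2 fold change was positive for 21 of 31, against 48.7% of all genes, with a median of 0.25. In 3 genes (Itih1, Itih3 and Kng2) every KO CDDO-Me library was above every WT CDDO-Me library, against 9.25% of all genes, and in 0 every library was below, against 9.82%. Itih1 had 1088, 1203, 1067 and 897 CPM in the KO CDDO-Me libraries, against 782, 719, 862 and 827 CPM in the WT CDDO-Me libraries (log2 0.42 ± 0.20, edgeR adjusted p = 0.301). Saa2, whose values overlapped, had a log2 value of 1.23 ± 0.65 (edgeR adjusted p = 0.365). Counts of mitochondrial genes were 2.565% to 3.204% of a library in KO CDDO-Me, against 3.855% to 14.67% in WT CDDO-Me, with no overlap. Nuclear ribosomal RNA was 0.00108% to 0.00768% in KO CDDO-Me. It was 0.1936% to 0.5105% in WT CDDO-Me 2 to 4 and 0.0105% in WT CDDO-Me 1, again with no overlap. For this RNA WT CDDO-Me 1, like WT DMSO 4, was below the rest of its group. The part of these library features in this comparison and in the interaction was not tested.

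Spread between animals differed by gene and group. The median coefficient of variation over the 31 genes was 27.8% in KO CDDO-Me, 35.8% in KO untreated, 25.5% in WT CDDO-Me and 59.5% in WT DMSO. Kng2 varied least in KO CDDO-Me (5.43%) and in WT DMSO (16.8%), Itih3 in KO untreated (9.43%) and Itih1 in WT CDDO-Me (7.75%). Saa3 varied most in both WT groups, at 187% in WT CDDO-Me and 193% in WT DMSO. Within KO CDDO-Me, replicate 2 was highest for 19 of the 31 and replicate 4 lowest for 20, and within KO untreated replicate 3 was highest for 21.

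Of 36 genes of the cytokine and signal chain that feeds the acute phase, 32 were tested. In KO livers with the drug 0 were called, with 6 higher and 1 lower at an unadjusted p under 0.05, against 6.24% and 9.58% of all genes. In WT livers 0 were called, with 1 higher and 4 lower, against 6.91% and 8.42% of all genes. Il6 was at or below 0.689 CPM in every library and was not tested. Socs3, a feedback inhibitor that STAT3 induces, had 36.8, 40.4, 56.0 and 229.6 CPM in the KO CDDO-Me libraries, against 5.03, 12.7, 31.6 and 4.47 CPM in the KO untreated libraries, with a log2 value of 2.75 ± 0.85 (edgeR adjusted p = 0.207). In WT livers Socs3 had 105, 140.1, 114 and 106 CPM in the WT CDDO-Me libraries, against 44.5, 18.6, 24.8 and 247 CPM in the WT DMSO libraries. Stat3 had 280.1, 297, 225 and 261 CPM in the KO CDDO-Me libraries, against 117, 126, 183 and 189 CPM in the KO untreated libraries (log2 0.79 ± 0.24, edgeR adjusted p = 0.204).

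In KO untreated against WT DMSO livers, 5 of the 32 fell and 0 rose, against 0.969% and 0.407% of all genes. They were Stat3 (log2 -1.10 ± 0.24), the interleukin 1 receptor Il1r1 (-2.43 ± 0.40), the tumour necrosis factor receptor Tnfrsf1a (-1.04 ± 0.20), the NF-κB cofactor Nfkbiz (-1.97 ± 0.42) and Cebpd (-1.96 ± 0.45), with edgeR adjusted p values of 0.00693 to 0.0421. The calls held in 12, 16, 15, 11 and 4 of the 16 fits that left out 1 library, in that order. Cebpd, a C/EBP factor induced in the acute phase, had 3.45, 4.87, 9.44 and 8.52 CPM in KO untreated libraries, against 23.4, 15.5, 9.23 and 53.7 CPM in WT DMSO libraries. Its lowest WT DMSO value lay within the KO untreated range. In KO CDDO-Me against WT CDDO-Me livers 2 of the 32 fell and 0 rose, against 2.23% and 1.06% of all genes. At an unadjusted p under 0.05, 8 were lower and 2 higher, against 9.16% and 7.92% of all genes. One of the falls was that of Tnfrsf1a (log2 -0.93 ± 0.20, edgeR adjusted p = 0.0185). No gene of the chain was called in the interaction, against 0.130% of all genes. At an unadjusted p under 0.05, 3 were positive there, against 3.57% of all genes.

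Of 22 other genes known to rise in the acute phase, 1 rose and 0 fell in KO livers with the drug, against 0.105% and 0.0247% of all genes. This was Mt1, a metallothionein that binds zinc and copper, with 607, 600.3, 273 and 428 CPM in the KO CDDO-Me libraries, against 25.0, 58.0, 116 and 125 CPM in the KO untreated libraries (log2 2.56 ± 0.45, edgeR adjusted p = 0.0282). That call held in 9 of the 16 fits that left out 1 library. In KO untreated against WT DMSO livers Mt1, Mt2, Slc39a14 and Hamp fell and Hamp2 rose, against 0.969% and 0.407% of all genes. These 5 calls held in 16, 16, 12, 4 and 11 of the 16 fits, in that order. In KO CDDO-Me against WT CDDO-Me livers Tat, which degrades tyrosine, rose and 0 fell, against 1.06% and 2.23% of all genes. Of 15 genes known to fall in the acute phase, 14 were tested and 1, Fetub, was called. It fell in KO CDDO-Me livers against WT CDDO-Me livers (log2 -1.05 ± 0.27, edgeR adjusted p = 0.0394), where 2.23% of all genes fell. Its call held in 8 of the 16 fits. Alb, the main plasma protein, had log2 fold changes of 0.16 ± 0.41 in KO livers and 0.06 ± 0.41 in WT livers with the drug.

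Marker levels of other cells differed between some of these groups. Of 8 stellate cell and fibroblast markers, 7 had negative log2 fold changes in KO CDDO-Me against KO untreated livers, where 45.5% of all genes were positive. At an unadjusted p under 0.05, 4 of the 8 were lower, against 9.58% of all genes. Of 8 endothelial markers 8 were negative and 1 was lower at that p. Of 5 erythroid markers tested 5 were positive and 2 were higher at that p, against 6.24% of all genes. From these 3 lists 0 genes were called, against 0.130% of all genes. The stellate markers summed to 266.5 to 399.1 CPM in KO CDDO-Me and 263.7 to 683.3 CPM in KO untreated. With the drug in WT livers 8 of the 8 were positive and 4 were higher at that p, against 6.91% of all genes. Their sums were 457.1 to 520.2 CPM in WT CDDO-Me and 228.3 to 393.4 CPM in WT DMSO. In the interaction 8 were negative and 7 lower at that p, against 4.96% of all genes. In these 2 comparisons 0 were called, against 0.728% and 0.130% of all genes. Of the 8 endothelial markers 7 were positive with the drug in WT livers, and 3 were higher at that p. At that p 5 of the 8 stellate markers were higher in KO untreated than in WT DMSO, against 6.65% of all genes. In KO untreated against WT DMSO livers 1 of 12 macrophage markers, Adgre1, rose (log2 1.13 ± 0.19, edgeR adjusted p = 0.00749), against 0.407% of all genes. Of 5 neutrophil markers tested 1, Mmp8, fell there (edgeR adjusted p = 0.0353), against 0.969% of all genes. That call held in 7 of 14 fits leaving out 1 library. Mmp8 was at 0 in 3 KO untreated libraries and at 0.0426 CPM in the other, against 0.0694 to 0.205 CPM in WT DMSO 1 to 3 and 3.31 CPM in WT DMSO 4. The summed level of 12 neutrophil markers was 5.86 to 8.01 CPM in KO CDDO-Me and 2.93 to 5.49 CPM in KO untreated. It was 7.25 to 16.7 CPM in WT CDDO-Me, against 4.22 to 8.53 CPM in WT DMSO 1 to 3 and 46.7 CPM in WT DMSO 4. Elane and Ly6g were at 0 in every KO untreated library, and Camp in every library of KO CDDO-Me, KO untreated and WT CDDO-Me. The summed level of 12 Kupffer cell and macrophage markers was 416.6 to 672.3 CPM in KO CDDO-Me and 294.6 to 537.8 CPM in KO untreated. It was 530.8 to 729.6 CPM in WT CDDO-Me and 254.0 to 347.9 CPM in WT DMSO. With the drug in WT livers 4 of the 12 (Adgre1, Clec4f, Cd5l and Marco) rose by edgeR, against 0.555% of all genes. These calls held in 3, 4, 16 and 15 of the 16 fits that left out 1 library, in that order. Marco alone of the 12 fell in KO CDDO-Me against WT CDDO-Me (log2 -1.86 ± 0.33, edgeR adjusted p = 0.004), against 2.23% of all genes. It was also called lower in the interaction (log2 -2.86 ± 0.47, edgeR adjusted p = 0.0155), against 0.130% of all genes. Both Marco calls held in 16 of the 16 fits. The 11 hepatocyte markers summed to about 93590.0 to 122800.0 CPM in KO CDDO-Me and 63400.0 to 144200.0 CPM in KO untreated. The part of cell makeup in the acute phase values was not tested.

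By log2 CPM over the 16 libraries, the gene most like Saa1 of all 16206 tested was Saa2 (Pearson's r = 0.987), followed by Itih4 (0.954) and Hp (0.933). The genes nearest to Fgb were Fgg (0.997) and Fga (0.996), and the gene nearest to Fgl1 was Itih4 (0.971). For 14 of the 31 genes the nearest of all was another acute phase gene of the list. Saa3 was nearest to Tmco6 (0.867), Zcchc11 (0.791) and Ccl2 (0.770), none of them on the list. These values describe 16 libraries in 4 groups, which share their group differences and library features.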

How the data were processed

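RNA-seq gene counts from 16 mouse livers, 4 per group, were deposited as 1 table of 33730 genes with a second table of FPKM. The counts are the authors' whole numbers per gene, not normalized. The deposited FPKM values are those counts per kilobase and per 1000000 counts in genes, checked against the count table (largest relative deviation 8.7e-07). Per the submitters' processing notes, the build was GRCm38.p5 and the tools named were HTSeq 0.6.1p1, TopHat2 2.1.0, DESeq2, cutadapt 1.2.1 and CASAVA 1.8.2. The sources used here do not give their roles, the annotation release or whether counting used strand.

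Groups came from the labels. Genes were tested with edgeR 4.0.16 in R 4.3.3, by the quasi-likelihood test with TMM scaling, filterByExpr at a minimum count of 10, 1 fit of the 4 groups and Benjamini-Hochberg adjustment over 16206 genes, with a threshold of 0.05. CPM are counts per 1000000 on the scaled library sizes, and log2 CPM for likeness between genes used a prior count of 2. The SE of an edgeR log2 fold change was derived as its absolute value divided by the square root of the quasi-likelihood F statistic. The scripts were tested on simulated data. Alternatives were RLE or library-total scaling, scaling without the 31 genes, no filter, a minimum count of 50, DESeq2 1.42.0, limma 3.58.1 on log2(FPKM + 1) or log2(FPKM + 0.1), fits of only the groups compared, a replicate block, leaving out libraries, and a covariate for intronic counts. No library was a duplicate (lowest chi-square per degree of freedom 15.1), and 0 columns belonged to other samples. Gene positions and overlaps came from GENCODE M21, which held 33629 of the IDs and all 31 members, and promoters from RefSeq on GRCm38.p6, searched on both strands over 250 bases before each start. Shared transcript words are 100 bases long.

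The members and lists were chosen with earlier results of these data known. The rule for naming gave every library's value for Saa1, Saa2, Saa3, Orm1, Orm2, Hp, Lcn2, Crp, Fgb, Serpina3n, Itih3, Itih4, the called genes and the 3 smallest p values per comparison, and named genes of other lists where called or where they are central to the pathway. One gene of the cytokine and signal chain list that fell in KO CDDO-Me against WT CDDO-Me livers is not reported here. Same-numbered libraries of KO untreated and WT DMSO deviated together from their group means in 4 of 4 pairs (correlations 0.371 to 0.483). In both groups replicates 1 and 2 were rich in intronic counts (0.673% to 0.967%), and replicates 3 and 4 were not (0.212% to 0.283%). The labels give no pairing, and whether the replicate number pairs these groups was not tested. The correlations were -0.454 to 0.346 for KO untreated and KO CDDO-Me. They were -0.174 to 0.228 for WT CDDO-Me and KO CDDO-Me, and -0.03 to 0.319 for WT DMSO and WT CDDO-Me.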

Additional observations from a re-analysis of the deposited data

Results flagged for a closer look

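In 11 of 124 sets of 1 gene in 1 group of 4 libraries, 1 library lay so far from the other 3 that its gap to the nearest was over 0.829 of the range. Chance puts about 1 in 20 such sets past this value. WT DMSO 4 gave 8 of them, always as the highest library: Saa3 at 1255 CPM, Lcn2 at 1310.0 CPM, Crp at 2509 CPM, Apcs at 518.9 CPM, Serpina3n at 4220.0 CPM, Lbp at 535.3 CPM, A2m at 82.7 CPM and Steap4 at 4717 CPM. WT CDDO-Me 2 gave 2 as the highest library, Saa3 at 933.8 CPM and A2m at 72.6 CPM. WT CDDO-Me 3 gave 1 as the lowest library, Itih3 at 1532 CPM. WT DMSO 4 also had the highest summed level of neutrophil markers, 46.7 CPM. Its nuclear ribosomal RNA was 0.00595% of counts, against 0.173% to 0.634% in WT DMSO 1 to 3. The part of either in these values was not tested.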

How the results depend on the processing

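The number of the 31 genes called in KO CDDO-Me against KO untreated was 4, and it was 7 with RLE scaling, 9 with library totals, 8 with no filter, 7 with a minimum count of 50, 17 with DESeq2, 8 and 7 with limma on log2(FPKM + 1) and log2(FPKM + 0.1), 0 without the 4 intron-rich libraries, 0 with only the 2 groups compared and the replicate block and 10 without WT DMSO 4 and WT CDDO-Me 1. DESeq2 called 1.85% of all genes there, and the other settings just given 0 to 0.542%. Leaving out 1 library at a time gave 0 to 12 (0.0238% to 0.816% of all genes). In KO untreated against WT DMSO the number was 4, and it was 8 with DESeq2 (4.08%) and 0 with only the 2 groups compared (0.130%). It was 2 without the intron-rich libraries (0.525%) and 8 with the intronic covariate (5.08% of all genes). Leaving out 1 library gave 3 to 6 there (0.619% to 1.61% of all genes). In KO CDDO-Me against WT CDDO-Me it was 0, and 1 with library totals, DESeq2, either limma fit or only the 2 groups compared, and 2 with the covariate, where 5.40%, 6.98%, 5.92% and 5.99%, 13.5% and 13.4% of all genes were called. For the interaction it was 0, and 2 with library totals, 1 with a minimum count of 50, 4 with DESeq2, 2 with either limma fit and 5 with the covariate, against 0.278% to 1.24% of all genes. Leaving out 1 library, KO CDDO-Me against WT CDDO-Me stayed at 0 (1.63% to 5.03% of all genes). The interaction also stayed at 0 (0.110% to 0.287%). WT CDDO-Me against WT DMSO was 0 in every setting run (0.317% to 2.92% of all genes). The causes were not tested.

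Over all groups the correlation of deviations of same-numbered libraries was over 0.1 in 12 of 24 pairs (range -0.454 to 0.483), and 7 of 16 libraries correlated best with their own number. The replicate block gave 6 genes in KO CDDO-Me against KO untreated (0.284% of all genes) and 4 in KO untreated against WT DMSO (1.54%). It gave 0 in WT CDDO-Me against WT DMSO (1.39%), 0 in KO CDDO-Me against WT CDDO-Me (5.00%) and 1 for the interaction (0.259%). Under it Serpina3k in KO livers had a log2 fold change of 0.022. Fits of only the 2 groups compared with the replicate block were chosen after seeing the data. The count was 0 in KO CDDO-Me against KO untreated (0% of all genes), where Serpina3k had a log2 fold change of 0.0027. There 22 were higher and 1 lower at an unadjusted p under 0.05, for which the share of all genes was not counted. The count was 1 in KO untreated against WT DMSO (0.476%), 1 in KO CDDO-Me against WT CDDO-Me (12.1%) and 0 in WT CDDO-Me against WT DMSO (0.392%). The intronic covariate, chosen after seeing the data, turned Crp to -0.34, Cp to -0.014 and Cfb to -0.019 in KO livers. Leaving out 1 library, Serpina3k ranged over -0.21 to 0.11.

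Over all genes, the calls in KO CDDO-Me against KO untreated numbered 21 by edgeR and 298 by DESeq2, with 4 to 133 leaving out 1 library, and in KO untreated against WT DMSO 223 and 657, with 20 in a fit of only those groups. Calls numbered 118 and 471 in WT CDDO-Me against WT DMSO, 534 and 1125 in KO CDDO-Me against WT CDDO-Me, and 21 and 176 for the interaction. Library totals moved the median of all genes to -0.26 in KO livers with the drug, -0.17 in WT livers with the drug and 0.18 in KO untreated against WT DMSO.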
